A study of Drosophila melanogaster with 3 samples.

Results

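The 5 GATA factor genes pnr, srp, grn, GATAd and GATAe, together with ush, which encodes a GATA cofactor, were examined for binding of the homeodomain protein NK7.1 in Drosophila melanogaster embryos. These 6 genes, of 13945 protein-coding genes on the 6 arms examined (X, 4 and the arms of 2 and 3), were selected on the peaks of these same lists, with ush known beforehand to hold the strongest peak. Their peak counts, signals and ranks are therefore a description and carry no test. All peak summits inside each gene body or within 2 kb of it were taken, on the Ensembl 115 gene models of the dm6 assembly.

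The measurement was chromatin immunoprecipitation with sequencing (ChIP-seq), which enriches the DNA bound by a chosen protein and reports it as peaks along the genome. All samples belonged to 1 group of 3 biological replicates of whole embryos aged 0 to 24 hours, with males and females pooled, from a line stably carrying NK7.1 fused to GFP at its C-terminus. The labels give an anti-GFP antibody for the precipitation in their description and NK7.1 in the antibody field. The labels do not name the promoter that drives the fusion, and libraries of untagged embryos or input chromatin were not analysed here. Since whole embryos were used, fewer bound cells and weaker binding per cell cannot be told apart in any signal below.

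GATA factors are zinc-finger proteins that bind DNA words built on the letters GATA. U-shaped, the product of ush, is a multi-zinc-finger protein of the Friend of GATA family that binds GATA factors such as Pannier and Serpent and limits their activity, and it acts in the dorsal ectoderm, notum, heart and blood lineage. Pannier (pnr) patterns the dorsal ectoderm, heart precursors and notum, Serpent (srp) is needed for haemocytes, fat body and endoderm, Grain (grn) shapes the posterior spiracles, and GATAe acts in the endoderm and midgut.

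Among the 6 genes, ush and GATAd held peaks of the reproducible set and pnr, srp, grn and GATAe held none. The reproducible set is the authors' list of 2475 peaks thresholded on rank agreement. It consists of the 2475 strongest peaks of their list of 26951 peaks called on the pooled replicates. It contained 7 summits at ush and 2 at GATAd. Of all protein-coding genes, 22.6% had at least 1 such summit in the same window, and among the 1977 genes at least 10 kb long the share was 41.4%, so 2 of 6 lies near the background. Genes at least 10 kb long thus held a summit more often, and ush spans 64.3 kb and GATAd 5.45 kb. Per kb of window, ush had 0.102 reproducible summits and GATAd 0.212. The mean was 0.0257 over genes at least 10 kb long and 0.0334 over all protein-coding genes. Whether length accounts for the counts was not tested. A count of 7 or more was found in 14 protein-coding genes including ush, and the highest count was 11.

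The sequences under 7 of the 9 reproducible peaks are printed here because they show which of them carry a GATA word. The windows of ush peak 7, which overlaps a UTR, and of GATAd peak 2, in a coding exon of SamDC, are not printed, and neither holds a GATA or TAAT word. All are from the RefSeq copy of the dm6 assembly, plus strand, 5′ to 3′, and capitals mark the words GATA and TAAT on either strand (TATC and ATTA on the minus strand). TAAT is the core of many homeodomain binding sites. Peaks are numbered by signal within each gene. The first sequence is a 291 bp window on the summit of the strongest peak, at chr2L:480937-481227, in an intron of ush.
ush peak 1: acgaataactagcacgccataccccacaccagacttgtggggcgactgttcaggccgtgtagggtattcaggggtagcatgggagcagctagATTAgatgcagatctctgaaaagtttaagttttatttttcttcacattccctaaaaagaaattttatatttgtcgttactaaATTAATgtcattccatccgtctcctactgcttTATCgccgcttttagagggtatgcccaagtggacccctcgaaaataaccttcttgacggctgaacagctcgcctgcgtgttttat
The next 3 windows of 101 bp are centred on further ush summits that lack a GATA word, at chr2L:479999-480099 (peak 2), chr2L:485817-485917 (peak 3) and chr2L:481893-481993 (peak 6), all in introns.
ush peak 2: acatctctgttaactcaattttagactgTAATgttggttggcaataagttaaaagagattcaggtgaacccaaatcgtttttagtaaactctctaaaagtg
ush peak 3: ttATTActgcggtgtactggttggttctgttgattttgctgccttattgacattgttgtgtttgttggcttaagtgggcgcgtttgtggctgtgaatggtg
ush peak 6: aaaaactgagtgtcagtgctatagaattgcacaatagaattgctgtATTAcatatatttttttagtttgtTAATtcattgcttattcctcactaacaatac
The 3 windows with a GATA word lie at chr2L:520830-520930 (ush intron), chr2L:510560-510660 (ush intron) and chr2L:10334986-10335086 (GATAd intron).
ush peak 4: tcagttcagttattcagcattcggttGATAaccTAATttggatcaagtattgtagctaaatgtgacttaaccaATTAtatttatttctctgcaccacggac
ush peak 5: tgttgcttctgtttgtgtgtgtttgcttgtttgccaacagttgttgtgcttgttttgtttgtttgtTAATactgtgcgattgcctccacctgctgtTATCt
GATAd peak 1: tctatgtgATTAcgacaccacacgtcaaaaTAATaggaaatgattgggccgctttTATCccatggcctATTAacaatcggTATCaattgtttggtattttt

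The ush gene (FBgn0003963) runs from 476220 to 540560 on the plus strand of 2L and has 4 annotated start sites, at 0, 14.6, 47.2 and 47.5 kb from its 5′ end. Of its 7 reproducible summits, 6 lay in introns and 1 in a 5′ UTR, and 4 of the 7 fell in the first 10 kb. Peak 1, with its summit at 481082, had the highest signal of the whole pooled list. Signal is a score whose scale was set by the peak caller, and here it was 1837 in the pooled list, and 572, 586 and 668 in replicates 1, 2 and 3 (609 ± 52.2, SD, n = 3). It ranked first in the pooled list and in each of the 3 replicates. Its lead over the second peak of the same list was small, at 1.15, 1.14 and 1.10 times in replicates 1, 2 and 3 and 1.16 times in the pooled list. Divided by the median signal of each replicate's 2475 strongest peaks, called top peaks below, it came to 11.3, 14.3 and 13.5 (13.0 ± 1.54, SD, n = 3).

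Peak 1 does not stand at an ush start site. The nearest start is that of cbt, a gene for a zinc-finger protein that lies inside ush on the opposite strand (476446 to 479688), and the summit lay 1394 bp upstream of it. Peak 2, at 480049, lay 361 bp upstream of the same start, and peak 6, at 481943, lay 2255 bp upstream. These 3 summits span 1894 bp, and peaks 1 and 2 fall within 2 kb of both ush and cbt, so the lists do not tell which gene they belong to. Replicate summits of peak 1 lay 0, 8 and 20 bp from the pooled summit.

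**Figure D1:**
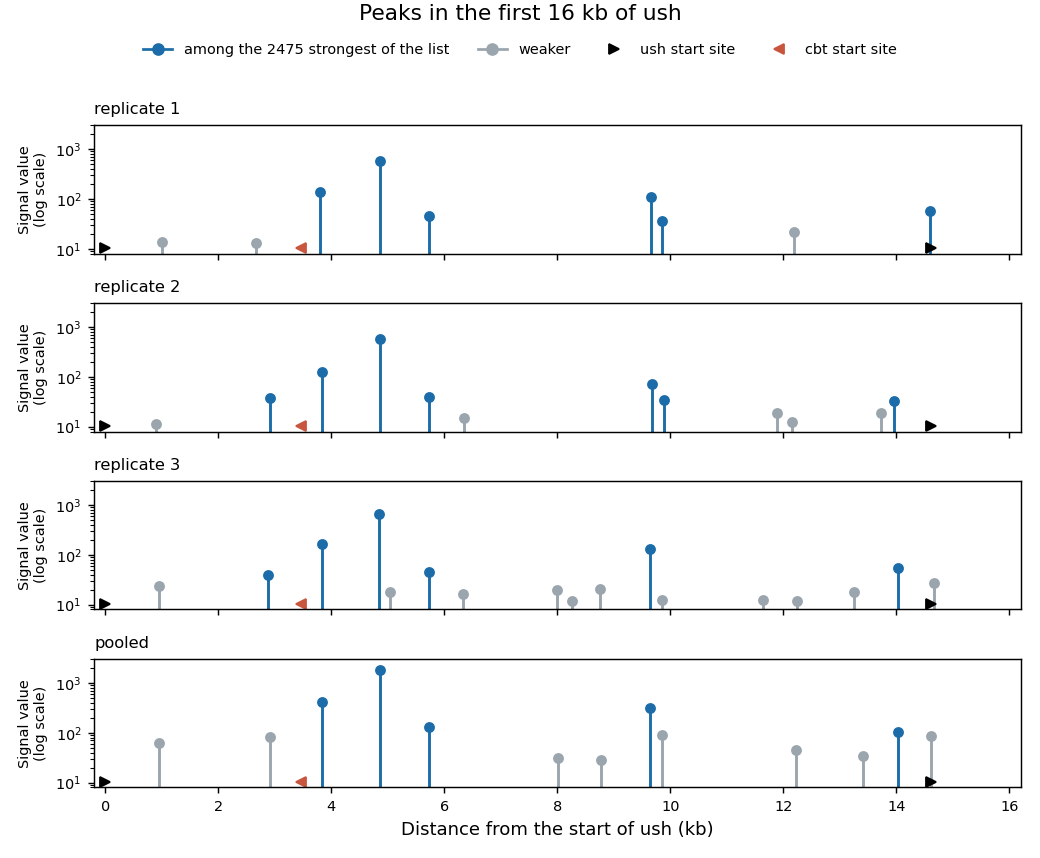
Peaks in the first 16 kb of ush, with distance from the gene's start in kb on the horizontal axis and the deposited signal value on a log scale on the vertical axis, for replicates 1 to 3 and the pooled list. Each stem is a peak summit, blue if among the 2475 strongest of its list and grey otherwise, and triangles are start sites of ush (black) and cbt (red). The tallest stem is peak 1 in all 4 panels, with peaks 2 and 6 on either side of it.

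Peak 2 had signals of 140, 125 and 161 in replicates 1, 2 and 3 (142 ± 18.4, SD, n = 3) and ranked 139, 122 and 95. Peak 1 exceeded it by 4.09, 4.70 and 4.14 times in the same replicates (4.31 ± 0.34, SD, n = 3). Peak 6 was far weaker and steady, with 45.4, 39.8 and 46.2 (43.8 ± 3.51, SD, n = 3). The order peak 1, peak 2, peak 6 was the same in every replicate, without overlap. In the pooled list peak 1 held 57.8% of the summed signal of the 7 reproducible ush peaks.

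The other 4 reproducible ush peaks lay farther into the gene. Peak 3, at 485867 and 4968 bp upstream of the start site at 14.6 kb, had 107, 73.1 and 132 in replicates 1, 2 and 3 and ranked 254, 380 and 160. Peak 4, at 520880 and 2586 bp upstream of the start site at 47.2 kb, had 75.6, 63.3 and 61.4 and ranked 527, 519 and 818. Peak 5, at 510610, lay in the long intron 12856 bp upstream of that start. Its nearest start was that of lncRNA:CR46259, with the summit 8374 bp upstream of it. The signals of peak 5 were 51.0, 29.3 and 94.8, with ranks 1220, 2371 and 322. Peaks 4 and 5 overlapped in their replicate values, and peak 5 varied most, with a 3.23-fold range in which replicate 3 was highest and replicate 2 lowest.

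Peak 7, at 490243, lay in a 5′ UTR of ush, 592 bp upstream of the start site at 14.6 kb, and within 2 kb of lncRNA:CR46258, which begins at that same start. It had signals of 32.7 in replicate 2 and 54.7 in replicate 3, ranks 1939 and 1033, and no overlapping peak in replicate 1. Another pooled summit, 585 bp away at 490828 and 7 bp upstream of the start site, had 57.8 in replicate 1 (rank 932) and 27.2 in replicate 3 (rank 4479), with no overlapping peak in replicate 2. The replicates thus differed in which of the 2 positions at this internal start was listed, and only replicate 3 listed both. In the pooled list the second position had a signal of 86.5, below the lowest reproducible signal of 92.5.

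**Figure D2:**
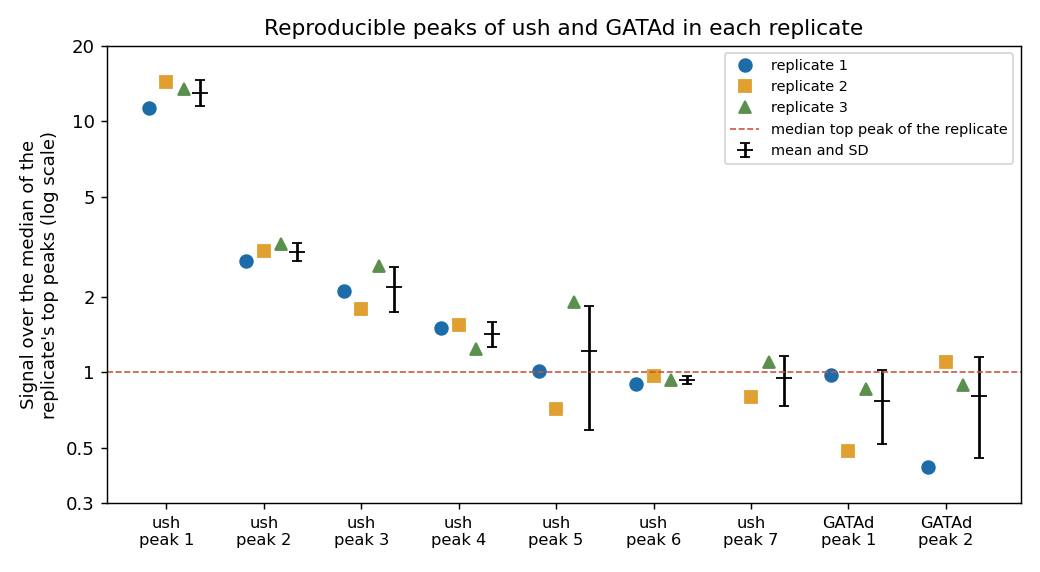
Signal of the 9 reproducible peaks at ush and GATAd in each replicate, divided by the median of that replicate's top peaks, on a log axis. Coloured points are replicates 1 to 3, black bars the mean and SD over the replicates with an overlapping peak, and the dashed line marks a ratio of 1; ush peak 1 lies between 11.3 and 14.3 and ush peak 7 has no point for replicate 1.

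GATAd (FBgn0032223) occupies 10333734 to 10339185 on the plus strand of 2L. Its peak 1, at 10335036, lay in an intron 1122 bp downstream of a GATAd start site and within 2 kb of the neighbouring gene Cox10. It had signals of 49.1, 19.8 and 42.3 in replicates 1, 2 and 3 (37.1 ± 15.3, SD, n = 3) and ranked 1306, 5853 and 1712. Replicate 2 was low at this site. Peak 2, at 10339572, lay 387 bp past the 3′ end of GATAd, in a coding exon of SamDC and 115 bp downstream of the SamDC start. It had 21.2, 45.1 and 44.2 (36.9 ± 13.6, SD, n = 3) and ranked 6417, 1033 and 1567, so that here replicate 1 was low. SamDC encodes S-adenosylmethionine decarboxylase, an enzyme of polyamine synthesis.

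The GATAd start site itself held a peak just outside the reproducible set. Its summit at 10333808, 74 bp into the 5′ UTR, had a pooled signal of 91.5 and rank 2523, against the lowest reproducible signal of 92.5 at rank 2475. In replicates 1, 2 and 3 this peak had 35.8, 19.3 and 35.4 and ranked 2443, 6317 and 2523, again lowest in replicate 2. The weakest member peaks inside the set were ush peak 7 with 103 and GATAd peak 2 with 109.9, and the strongest outside at ush was at 486078 with 89.0. With respect to the 2 kb window, the farthest summit inside was GATAd peak 2, and the nearest reproducible summit outside was 3775 bp upstream of ush, with signal 243 and the CG4297 start as its nearest.

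The 4 genes without a reproducible summit all had weaker entries in the pooled list, which reaches far into low signals: 79.8% of protein-coding genes had at least 1 pooled summit in their window. There were 4 pooled summits at pnr, 7 at srp, 11 at grn and 7 at GATAe, against 38 at ush and 6 at GATAd. Per kb of window that was 0.203 at pnr, 0.319 at srp, 0.289 at grn, 0.499 at GATAe, 0.556 at ush and 0.635 at GATAd, against a median of 0.268 over all protein-coding genes. In summit density GATAe came next after ush, although their strongest peaks were far apart in rank.

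**Figure D3:**
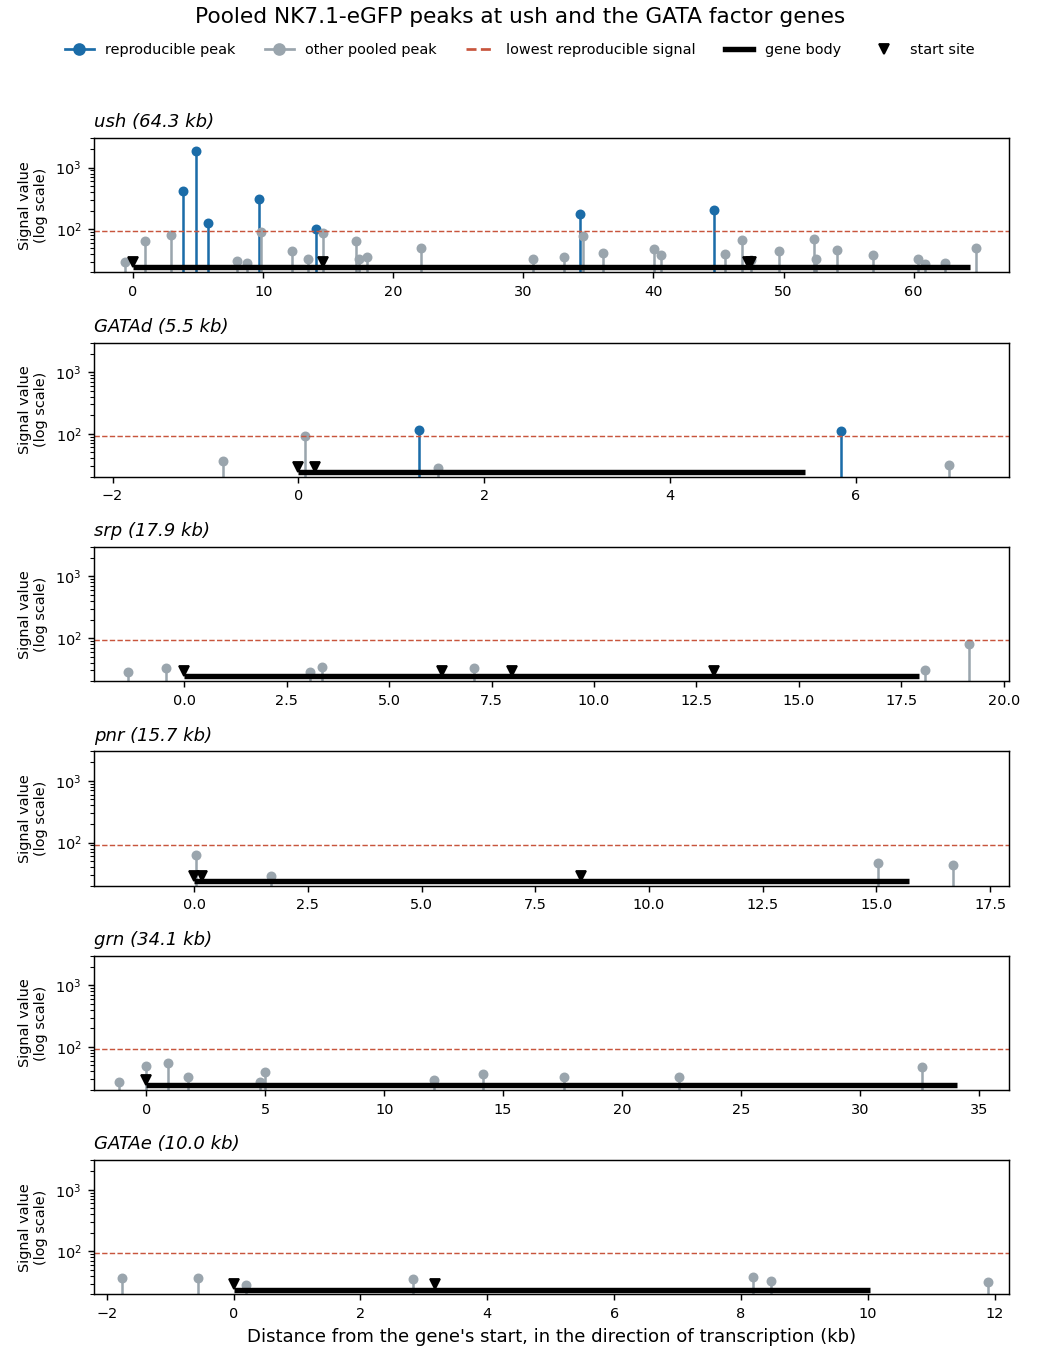
Pooled peaks at ush, GATAd, srp, pnr, grn and GATAe, by distance in kb from each gene's start in the direction of transcription and by deposited signal value on a log scale. Blue stems are reproducible peaks, grey stems other pooled peaks, black bars gene bodies, triangles start sites, and the dashed line the lowest reproducible signal of 92.5, which is passed at ush and GATAd alone.

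The strongest pooled peak at srp had a signal of 78.9 and rank 3292. Its summit at 16005311 lay 1226 bp past the 3′ end of srp, inside an exon of lncRNA:CR42839. It had 29.1, 30.5 and 12.3 in replicates 1, 2 and 3 and ranked 3558, 2198 and 26453, which made it a top peak in replicate 2 alone and one of the weakest entries in replicate 3.

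The strongest pooled peak at pnr, with 63.4 and rank 4907, lay at the pnr start itself, 38 bp into the 5′ UTR. It had 18.8, 18.2 and 25.2 in replicates 1, 2 and 3 and ranked 8239, 7313 and 5311, so all 3 replicates listed it and none ranked it high. In replicate 2 this was the stronger of its overlapping peaks, with a summit 140 bp upstream of the pnr start. Another replicate 2 entry, 61 bp into the 5′ UTR, had 13.7 and rank 15303.

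At grn the replicates differed in position. The intronic summit 927 bp from the start had a pooled signal of 54.7 and ranked 11277, 12267 and 4272 in replicates 1, 2 and 3. A second summit, 4 bp from the start, had 49.2 and ranked 3955 and 2819 in replicates 1 and 2, with no overlapping peak in replicate 3. GATAe had the weakest leading peak, with 38.1 and rank 13476 in a coding exon, and the strongest entry of each replicate fell at a different place in or near the gene.

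Ordered by the strongest peak in their windows, ush came first with rank 1 in replicates 1, 2 and 3, and GATAd followed with 1306, 1033 and 1567. The other genes ranked 3558, 2198 and 6648 (srp), 3955, 2819 and 4272 (grn), 8239, 7313 and 5311 (pnr) and 7701, 5687 and 10137 (GATAe). The strongest peak was not the same site in every replicate. For GATAd it was the intronic peak 1 in replicate 1 and peak 2, in SamDC, in replicates 2 and 3, and taken singly both peaks had rank ranges that overlapped those of srp, grn, pnr and GATAe. Relative to the median top peak the GATAd peaks averaged 0.770 ± 0.255 (peak 1) and 0.805 ± 0.350 (peak 2, SD, n = 3 each). The strongest site also differed between replicates at srp, grn and GATAe, and at pnr the replicate 2 summit was the upstream entry described above. By the strongest peak of any site, the ranges of ush, GATAd and the other genes did not overlap, whereas the range of srp overlapped those of grn, pnr and GATAe, and that of pnr overlapped that of GATAe. Those of grn and pnr did not overlap. By the same measure the strongest peaks averaged 13.0 ± 1.54 for ush, 0.989 ± 0.106 for GATAd, 0.595 ± 0.141 for srp, 0.588 ± 0.062 for grn, 0.442 ± 0.069 for pnr and 0.421 ± 0.060 for GATAe (SD, n = 3). In the pooled list pnr stood above grn, the reverse of the replicates' order. A pooled peak at least as strong was present at 16.3% of protein-coding genes for GATAd, 27.8% for srp, 36.7% for pnr, 43.5% for grn and 62.3% for GATAe. Among protein-coding genes at least 10 kb long, the length class of srp, pnr, grn and GATAe, the shares were higher, at 48.1% for srp, 59.1% for pnr, 67.3% for grn and 85.3% for GATAe.

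**Figure D4:**
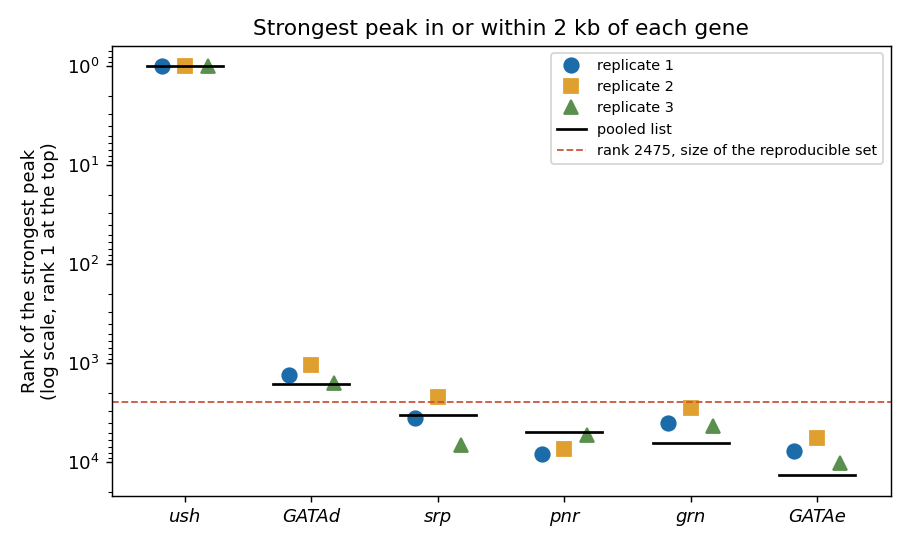
Rank of the strongest peak in or within 2 kb of each gene, on a log axis with rank 1 at the top. Points are replicates 1 to 3, black lines the pooled list and the dashed line rank 2475; ush is at rank 1 in every list, GATAd lies within the first 2475 in every list, and of the other genes srp alone does so, in replicate 2.

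Of the genes without a reproducible summit, srp, GATAe and pnr are neighbours on 3R. The stretch from 2 kb before srp to 2 kb past pnr, 15984152 to 16043796, is 59.6 kb long, against 68.3 kb for ush with 2 kb on either side. Protein-coding genes at least 10 kb long averaged 0.0257 reproducible summits per kb of window. Only 41.4% of these genes held any, so a gene of this length without one was common. The stretch held 0 reproducible summits, 22 pooled summits and 18, 19 and 28 summits in replicates 1, 2 and 3, with a highest pooled signal of 78.9. The nearest reproducible summits outside the gene bodies were 7.73 kb from pnr, with the IKKbeta start nearest, and 11.8 kb from srp, with the Hel89B start nearest. For GATAe the distance was 30.4 kb, to the same IKKbeta peak, and for grn it was 31.4 kb.

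Counting only each replicate's own top peaks, ush had 8, 9 and 8 summits in replicates 1, 2 and 3, GATAd had 2, 1 and 2, and srp had 0, 1 and 0, while pnr, grn and GATAe had 0 in each. Of all protein-coding genes, 22.5%, 22.6% and 22.9% had a top summit in replicates 1, 2 and 3. Of the 9 reproducible peaks at ush and GATAd, 6 (66.7%) were overlapped by a top peak of all 3 replicates, against 57.7% of all 2475. The other 3, ush peak 7 and both GATAd peaks, were overlapped by a top peak of 2 replicates. In the whole set, 671 peaks were overlapped by a top peak of exactly 2 replicates, 358 of exactly 1 and 17 of none. Summit positions spread by a median of 27.5 bp between replicates over the 8 peaks found in all 3 (9 to 149 bp), against 56 bp over 2458 such peaks in the whole set. The 2 largest ranges, 106 and 149 bp, were those of the GATAd peaks. The 8 peaks were not matched in signal to the whole set, and whether spread depends on signal was not tested. Within 1 kb of its own start sites, ush had 1 reproducible summit, peak 7, and GATAd had 0, while 13.9% of protein-coding genes had at least 1.

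Words were counted on both strands in windows of 50 bp on either side of each summit. GATA was present in 3 of the 9 windows at ush and GATAd, against 53.1% of all 2475 reproducible windows, and in 4 and 6 of the 9 windows lying 500 bp to the left and right. In those flanks over the whole set the shares were 44.8% and 43.8%. Summit and flank windows also differed in GC content, as given below. The longer word GATAA, which contains GATA, was found in the same number, 3 of 9, against 24.0%, and AGATAA, which contains GATAA, in 1 of 9 against 7.35%. In the 9 left and right flanks GATAA was present in 3 and 2, and AGATAA in 1 and 1. The windows with GATA were ush peaks 4 and 5 and GATAd peak 1, which held 2. Their nearest words were centred 22.5 bp to the left, 47.5 bp to the right and 6.5 bp to the right of the summit in that order, on the plus strand's coordinates. Peak 1 of ush had none within 50 bp and 1 in the 291 bp printed above, 62.5 bp to the right of its summit.

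The homeodomain core TAAT was present in 7 of 9 windows, against 71.3% of all reproducible windows and in 5 and 7 of the 9 windows lying 500 bp to the left and right. It occurred 12 times in the summit windows and 12 and 18 times in those flanks, so the right flank held as many windows with the word as the summits did. Over the whole set the flanks held it in 56.4% and 56.5% of windows. Median GC content was 43.6% in both of these flanks, against 35.6% in the summit windows. An effect of base composition on the word shares was not tested. The longer words, which contain it, were rarer: TAATTG in 1 of 9 against 9.49%, and TAATTA, which reads the same on both strands, in 0 of 9 against 6.95%. CACTT, the core of sites known for homeodomain proteins of the NK-2 type, was present in 4 of 9 against 23.6%, and in 3 and 2 of the 9 left and right flanks. Over the whole set the flanks held CACTT in 23.4% and 23.5% of windows, about the same share as the summits. At ush peak 1 both TAAT words within 50 bp lay close together, centred 30.5 and 32.5 bp to the right of the summit and overlapping each other. The 2 windows without TAAT were ush peak 7 and GATAd peak 2, which had GC contents of 51.5% and 50.5%, against a median of 36.6% over the 9 windows and 35.6% over all reproducible windows. These counts describe letters only and carry no test.

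At the 64 pooled summits of the 6 genes outside the reproducible set, GATA was present in 46.9% of windows, against 43.9% of the 24476 such windows genome-wide. The strongest grn summit, chr3R:8180467-8180567 in an intron, is printed because it holds 2 GATA words, whereas the same windows at the strongest pooled summits of pnr, srp and GATAe hold 0. The words at grn are centred 3.5 bp to the left and 7.5 bp to the right of the summit (capitals as above).
grn strongest pooled peak: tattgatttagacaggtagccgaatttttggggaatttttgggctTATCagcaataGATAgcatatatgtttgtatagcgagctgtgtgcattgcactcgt

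Genes whose strongest peak had ranks most like those of ush over the pooled and 3 replicate lists, by Euclidean distance of log10 ranks, were Ugalt and eIF2Bbeta, which share a peak with pooled signal 1580 (distance 0.872 each), and px with 1482 (1.02). For GATAd they were Rh5 (0.0699), Ptpmeg (0.0778) and Pli (0.0958), with pooled signals of 113, 122 and 123 for Rh5, Ptpmeg and Pli.

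Genes that act with or near the GATA factors were taken from 5 lists chosen with earlier results of these data known. Of their 49 genes, 14 (28.6%) held a reproducible summit in the same window. As given above, the share was 22.6% of all protein-coding genes and 41.4% of those at least 10 kb long. The lists were not matched for gene length, so their shares are not read as above background. Of 4 partners of GATA factors and U-shaped, 2 had one. These were CtBP, a co-repressor (pooled signal 152, in an intron), and Mi-2, a nucleosome remodeller of the NuRD complex (323, in an intron).

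Of 19 haemocyte genes, 3 had a reproducible summit. Pvf3, a ligand of the receptor Pvr, had 191 at its strongest, Bgb, a partner of Runx proteins, had 133 at its own start, and its relative Bro had 111, where the start of CG17249 was nearest. Of 5 endoderm genes, 2 had one: fkh, a forkhead factor of the gut, with 385 at 240 bp upstream of its start, and bin, a forkhead factor of the visceral mesoderm listed with them, with 161.

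Of 12 cardiac mesoderm genes, 5 had a reproducible summit. The strongest was at Mef2, the muscle differentiation factor, with 755, rank 25 in the pooled list and ranks 29, 24 and 26 in replicates 1, 2 and 3, although that summit lay 148 bp upstream of the start of the neighbouring gene Pal1. The others were tup, a LIM-homeodomain factor (173, nearest start CG10602), the T-box genes Doc2 (124, nearest start CG5194) and Doc1 (101.0, nearest start Argk2), and Hand, a basic helix-loop-helix factor (102, nearest start Ufd4). In replicates 1, 2 and 3 tup ranked 1020, 607 and 815 and Doc2 ranked 1084, 7362 and 941. Doc1 ranked 6024, 1389 and 2346 and Hand 3712, 1675 and 5071 in the same replicates. In all 5 genes the strongest summit lay outside the gene body, upstream or downstream. Mef2 held 4 reproducible summits in its window and kept a summit when gene bodies alone were counted. Of 9 dorsal ectoderm, amnioserosa and notum genes, 2 had one: dpp, the BMP ligand (207, in an intron), and peb, a zinc-finger factor of the amnioserosa (147, 557 bp upstream of its start).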

How the data were processed

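ChIP-seq peak lists of 3 replicates, of the pooled replicates and of the reproducible set, in narrowPeak format on dm6, were used as the authors deposited them, and dm3 lists were not used. Each list was derived from alignments and 1 further file, and the labels name a possible control experiment, per the labels and text listings. Which aligner and caller were used is not given in the sources used. The deposited signal value is a score of the caller, with unstated scaling for depth. Because the −log10 q-value deposited by the authors was capped, ranks rest on signal. The deposited summit offset gave the summit, written 1-based. Signals are the authors' and rank and describe entries of 1 list.

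The lists hold no counts, so depth is unknown. Nothing states that lists were scaled alike, so levels across replicates are set beside ranks. The replicates are labelled biological, and n counts them. A replicate peak matched a pooled peak by an overlap of at least 1 bp, the strongest being taken. A replicate's top peaks are its 2475 strongest. Gene models came from Ensembl 115 and sequences from RefSeq. Members and lists were chosen with earlier results of these data known, so no test was made. Named genes are the members, the genes nearest to or sharing their summits, listed genes with a reproducible summit, and the 3 genes most alike in rank. Genes nearest to listed genes' summits or to summits just outside the windows were named after their values were seen. Alternatives changed the window, the list, the support rule, the word and the replicates used. Python 3.11.15, NumPy 2.4.6 and Matplotlib 3.10.9 were used, and the counting was tested on simulated data.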

Additional observations from a re-analysis of the deposited data

How the results depend on the processing

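The number of the 6 genes with a reproducible summit, 2, was 1 in the stronger part of the set (1237 peaks) and for summits within 1 kb of the gene's own start, and 4 among the 4950 strongest pooled peaks, where pnr and srp gained 1 summit each. The pnr peak ranked 4907 there. A pooled peak as strong was present at 36.7% of protein-coding genes and 59.1% of those at least 10 kb long. Leaving out 1 replicate gave 1 to 2, because GATAd had no peak supported by both other replicates without replicate 3. The 9 summits became 5 and 20 under the stronger and the longer list. The 14 listed pathway genes became 9 and 22 under those lists, and 5 with gene bodies only or within 1 kb of a start. Within 1 kb of a start the share over all protein-coding genes was 13.9%. Shares over all genes for the stronger list and for gene bodies only are not given here. GATAA windows, 3 of 9, became 5 with 100 bp on either side and 1 for AGATAA. The median summit spread was 12 to 16.5 bp with 1 replicate left out, since 2 summits spread less than 3. The mean signal of ush peak 1, 609, was 13.0 as a ratio to the median top peak, a change of scale. The 73 pooled summits and the 6 peaks supported by all replicates stayed within 1.5 times under every alternative run. Depth is unknown, no control library was compared, and a gene without a reproducible summit may hold binding below the threshold.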
